A study of Mus musculus with 39 samples.

Results

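The proteasome subunit genes were taken as every gene whose symbol is Psma, Psmb, Psmc, Psmd, Psme or Psmf followed by a number, without the 3 immunoproteasome subunits Psmb8, Psmb9 and Psmb10, pseudogenes and antisense entries. The rule found 41 genes among the 46333 rows of the female table and the same number among the 54532 rows of the male table. It uses names alone and no measured value. By role, 8 genes encode the alpha ring and 8 the beta ring of the 20S core, 6 the ATPases of the 19S base, 3 other base subunits, 8 the 19S lid, 3 are 19S assembly chaperones, and 5 are activators or the inhibitor Psmf1.

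CD11b+ microglia were isolated from the cerebrum of wildtype (WT) and 5XFAD mice that had been kept in chronic intermittent hypoxia (CIH) or normoxia (NX), and their RNA was sequenced in bulk. 5XFAD mice carry mutant human transgenes of familial Alzheimer's disease under the Thy1 promoter, which is active mainly in neurons. The mice came from crosses of C57BL/6J females with 5XFAD males of a B6SJL line. Exposure began at 4 months of age. Females were collected at 10 months and males at 8 months, so sex cannot be told apart from age and length of exposure. According to the series description, inspired oxygen alternated between 21% and 6.5% O2 in 90-s intervals for 8 h per day. The study's methods state a slightly lower oxygen level and more hours per day, and NX mice stayed at 21% O2. The 39 libraries comprised 4 F WT NX libraries and 5 each of F WT CIH, F 5XFAD NX, F 5XFAD CIH and the 4 matching male groups.

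The proteasome degrades proteins that have been tagged with ubiquitin. Its barrel-shaped 20S core holds the protein-cutting sites inside the beta ring, the alpha rings gate the entry, and the 19S particle recognises, unfolds and feeds in the substrate. Other activators can replace the 19S particle, among them PA28, made of Psme1 and Psme2 and inducible by interferon, and PA200, made of Psme4. Subunit genes are known to be transcribed together when proteasome activity is limiting, through the transcription factor encoded by Nfe2l1. In microglia the proteasome takes part in protein turnover and in making peptides for antigen presentation.

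The sequences upstream of 3 members are shown because Psmb6 and Psme1 were among the members that moved most and Psme4 moved in the opposite direction. Each is the stretch of 250 bases before the RefSeq start on GRCm38.p6, 5′ to 3′, and capitals mark matches to the antioxidant response element core TGACNNNGC, the NF-Y box CCAAT or the GC box GGGCGG on either strand. The Psmb6 window is chr11:70525107-70525356, the Psme1 window chr14:55578244-55578493 and the Psme4 window chr11:30771525-30771774, all on the plus strand.
Psmb6: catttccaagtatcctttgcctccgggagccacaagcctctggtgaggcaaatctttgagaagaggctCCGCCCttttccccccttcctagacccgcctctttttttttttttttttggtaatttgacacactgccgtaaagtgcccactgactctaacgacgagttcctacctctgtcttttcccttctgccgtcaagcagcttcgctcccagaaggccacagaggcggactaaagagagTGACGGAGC
Psme1: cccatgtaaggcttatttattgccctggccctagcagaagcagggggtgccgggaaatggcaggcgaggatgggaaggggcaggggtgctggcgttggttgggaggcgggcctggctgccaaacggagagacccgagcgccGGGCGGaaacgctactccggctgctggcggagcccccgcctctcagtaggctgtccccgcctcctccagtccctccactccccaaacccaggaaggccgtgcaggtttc
Psme4: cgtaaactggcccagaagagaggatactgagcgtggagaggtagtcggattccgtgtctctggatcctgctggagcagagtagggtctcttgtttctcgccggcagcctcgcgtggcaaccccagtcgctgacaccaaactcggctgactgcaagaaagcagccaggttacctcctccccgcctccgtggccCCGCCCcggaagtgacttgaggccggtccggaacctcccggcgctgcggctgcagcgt
Windows were found in the RefSeq table for 34 of the 41 genes, 37 windows in all. TGACNNNGC was present in 13.5% of these windows and in 10.2% of the 32851 windows of all genes, CCAAT in 35.1% and 33.8%, and GGGCGG in 56.8% and 32.7%. In Psmb6 the TGACNNNGC match began 9 bases before the start. The motifs do not overlap each other in the 3 windows shown, and a match describes letters only.

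Female libraries held 14731683 to 25906121 reads counted on genes, and male libraries 13457293 to 23095627. The 8 microglia markers, among them Cx3cr1, P2ry12 and Csf1r, summed to 20450 to 33150 normalised read counts (CPM, scaled by TMM factors) in every library, and the 5 neuron markers to 3.21 to 17.8 CPM. On the first principal component of the 500 most variable genes, F 5XFAD NX 4 lay at −19.7, among the WT females and apart from the other 5XFAD females (25.1 to 39.5). M 5XFAD NX 4 and 5 lay at 14.8 and 16.0, the lowest of the male 5XFAD libraries. The comparisons that use these libraries are also given without each of them in turn. In bulk RNA, fewer cells of a type and less RNA per cell cannot be told apart.

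Levels between genes were compared per length, as FPKM. Within each table FPKM shares one set of gene lengths, but the 2 tables use different lengths (Psmb7 had 65.8 ± 4.84 FPKM in F WT NX and 10.3 ± 1.03 in M WT NX), so levels were not compared between the sexes. The order of genes and classes within a table also rests on its lengths. Psmb7 ranked 3 among the members in F WT NX and 33 in M WT NX. Psme1, a subunit of PA28, had the highest level of all members in WT NX libraries of both tables, with 97.6 ± 8.72 FPKM in females (SD, n = 4) and 68.3 ± 9.41 in males (SD, n = 5). In F WT NX it was followed by Psmb4 at 77.2 ± 11.1 FPKM, and their ranges overlapped (84.9 to 104.1 and 64.2 to 88.0). In M WT NX its range of 57.9 to 78.6 FPKM overlapped those of Psmc5 (49.2 to 68.0), Psma6 (46.5 to 62.5) and Psmb5 (37.7 to 74.6). Without Psma8 and Psmb11, beta ring genes lay between 39.0 and 77.2 FPKM in F WT NX with a median of 59.1, alpha ring genes had a median of 49.2, base ATPases of 42.7 and lid genes of 32.3. The 3 assembly chaperones were the lowest class, with 7.77 to 13.6 FPKM. In M WT NX the medians were 44.7 FPKM for the beta ring, 28.7 for the alpha ring, 34.8 for the base ATPases, 20.8 for the lid and 3.74 for the chaperones.

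Members known from other tissues were near the floor. Psmb11, the beta subunit of the thymus, had 0 counts in all libraries of F WT NX, M 5XFAD NX and M 5XFAD CIH and at most 14 counts in any library, and it did not pass the filter of CPM above 1 in 3 libraries. A count of 0 in one library allows up to 3 counts. Psma8, the alpha subunit of the testis, had 1.39 to 7.40 CPM in males and 2.73 to 5.97 CPM in females and was tested. The other 39 members were all at 9.07 CPM or more in every library. Each comparison below therefore tested 40 of the 41 members. Psme2 shares near-identical sequence with its retrocopy Psme2b, which had 654 to 1079 counts in females and 441 to 930 in males, so how reads were split between them is uncertain.

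**Figure D1:**
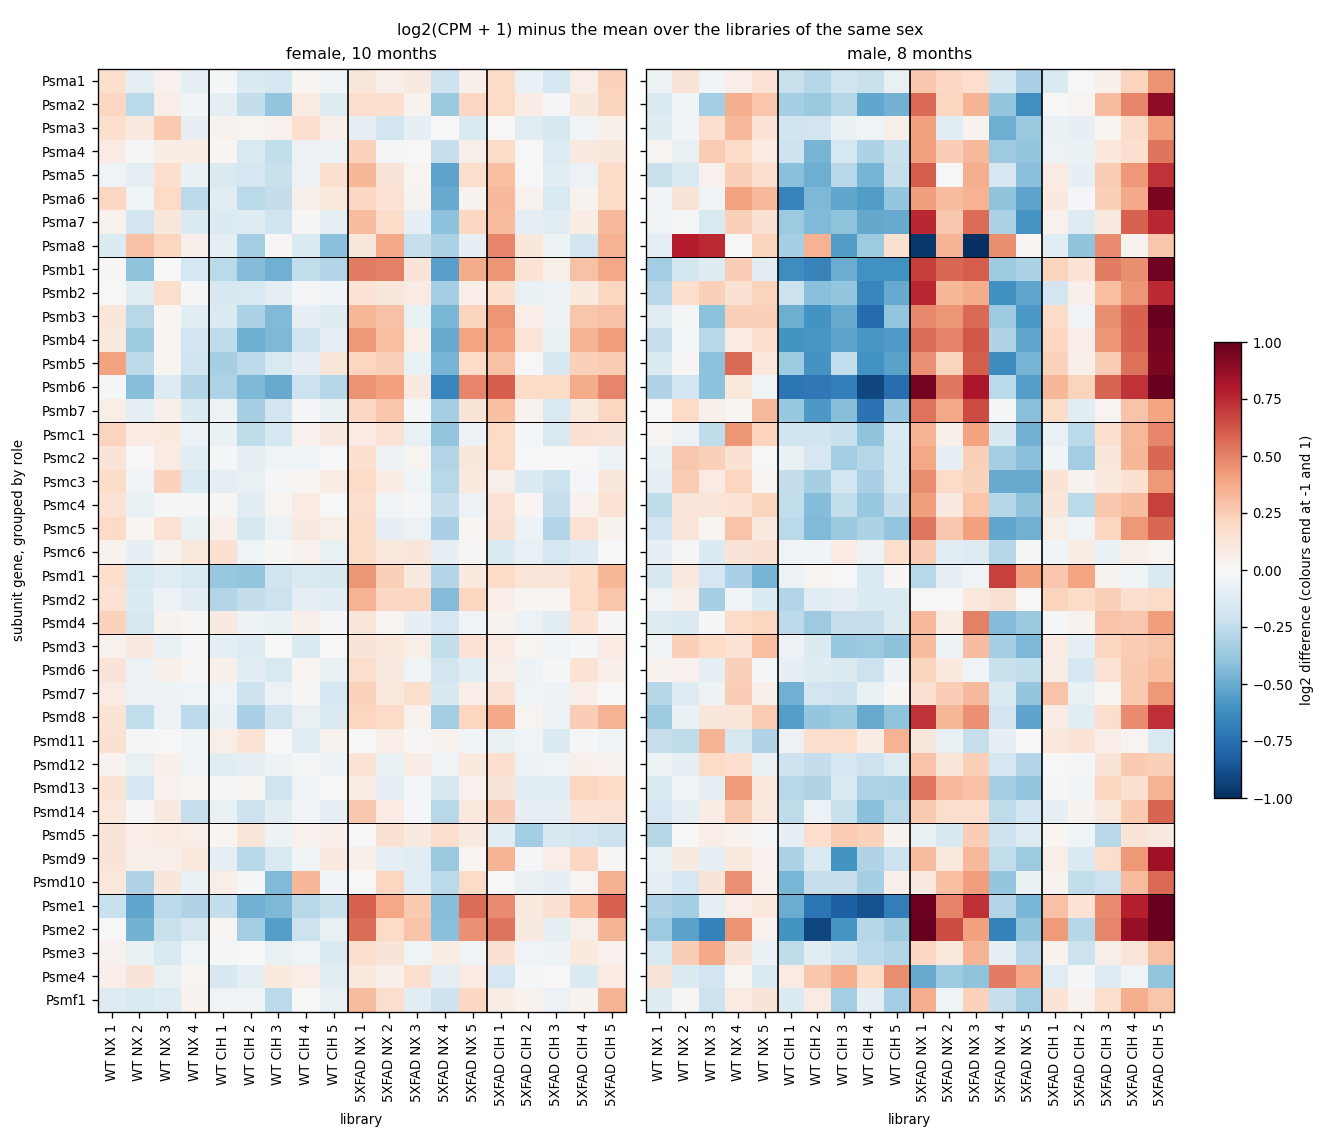
Heatmap of the 40 tested members in rows, grouped by role, and the libraries in columns, with female libraries on the left and male libraries on the right. Colour shows log2(CPM + 1) minus the gene's mean over the libraries of the same sex. The 5 M WT CIH libraries are mostly blue, and M 5XFAD NX 4 and 5 and F 5XFAD NX 4 are blue in most rows where the other libraries of their groups are red.

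In WT males, CIH was accompanied by lower levels of most subunit genes. Of 40 members tested between M WT NX and M WT CIH, 26 fell and 1 rose at an FDR below 0.05 (edgeR's quasi-likelihood test, Benjamini-Hochberg adjustment over all genes), which is 67.5% of the members against 28.6% of all 14983 genes tested (15.0% lower, 13.6% higher). The median log2FC of members was −0.35, and no member passed an absolute log2FC of 1, against 2.51% of all genes. Throughout, log2FC is the second group minus the first, so values below 0 are lower in CIH here. In 17 members every CIH library lay below every NX library, which held for 9.02% of all genes.

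In the 20S core all 7 beta ring members tested fell, with log2FC between −0.64 and −0.52, and 6 of 8 alpha ring members fell. Psmb6, the caspase-like catalytic subunit, had 76.0, 81.9, 70.1, 100.9 and 92.2 CPM in the M WT NX libraries and 56.5, 56.6, 57.9, 49.5 and 54.7 CPM in the M WT CIH libraries. The groups did not overlap, and the log2FC was −0.61 (SE 0.0995, adjusted p = 0.000608). Psmb7, the trypsin-like subunit, had 32.3, 37.3, 33.7, 32.9 and 40.9 CPM in NX and 24.7, 21.5, 23.9, 19.05 and 24.6 CPM in CIH. It also fell without overlap (log2FC −0.64, SE 0.108, adjusted p = 0.000738). Psmb5, the chymotrypsin-like subunit, had 41.4, 45.9, 33.9, 67.9 and 48.9 CPM in NX and 35.4, 29.7, 38.1, 29.5 and 31.0 CPM in CIH. Its groups overlapped in 1 NX library, and the log2FC was −0.54 (SE 0.151, adjusted p = 0.0149). Psma6, a subunit of the alpha ring, had the largest fall among members without overlap, from 57.9, 64.4, 57.4, 78.1 and 73.8 CPM to 36.7, 42.8, 40.9, 39.6 and 44.7 CPM (log2FC −0.69, SE 0.102, adjusted p = 0.000361).

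In the 19S particle 5 of the 6 base ATPases fell, with a class median of −0.34. Of the 8 lid members 4 fell, with a median of −0.26. Psmd4, a ubiquitin receptor of the base, had 75.4, 74.6, 80.8, 93.9 and 95.1 CPM in NX and 68.2, 63.5, 69.7, 69.6 and 74.2 CPM in CIH, and fell (log2FC −0.28, SE 0.0908, adjusted p = 0.0291). Its lowest NX library and its highest CIH library were less than 1 CPM apart. Psmd14, the deubiquitinase of the lid, fell with a log2FC of −0.29 (SE 0.105, adjusted p = 0.0467), and its ranges overlapped. Among the chaperones Psmd9 fell (log2FC −0.33), and Psmd10 (log2FC −0.34, adjusted p = 0.094) and Psmd5 (log2FC 0.17, adjusted p = 0.261) were not called.

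The activators moved in both directions. Psme1 had 132.3, 128.6, 153.1, 170.5 and 175.7 CPM in NX and 115.5, 98.1, 92.1, 89.0 and 100.9 CPM in CIH, and fell without overlap (log2FC −0.62, SE 0.104, adjusted p = 0.000742). Its partner Psme2 had a log2FC of −0.38 with a larger SE of 0.188 and was not called (adjusted p = 0.146). Its log2FC was −0.17 without M WT NX replicate 4. Psme3, the nuclear PA28 subunit, fell (log2FC −0.35, adjusted p = 0.0189), and the inhibitor Psmf1 was not called (log2FC −0.14, adjusted p = 0.358). Psme4 was the only member that rose, from 66.8, 55.5, 53.3, 62.2 and 54.6 CPM in NX to 64.7, 73.9, 78.9, 69.4 and 84.7 CPM in CIH. Its groups overlapped in 1 library each (log2FC 0.35, SE 0.0961, adjusted p = 0.0144). With the trend of log2FC on gene length over all genes removed, it was not called (log2FC 0.12).

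The calls in WT males depended on how the spread was estimated. With 1 library left out, the calls of Psmd4, Psmd9 and Psmd14 were lost in 5, 6 and 7 of 10 fits. When all 4 male groups shared 1 fit, 0 members and 0 of all genes were called between M WT NX and M WT CIH, with a member median of −0.35 as before. Scaling by library size alone gave 18 lower and 1 higher, against 29.1% of all genes. The calls of Psmd4, Psmd9, Psmd14 and Psme3 were lost under this scaling, and those of Psmd14 and Psme3 also with the length trend removed. The 5 neutrophil markers summed to 157.2 to 837.9 CPM in M WT NX and 75.5 to 204.2 CPM in M WT CIH, with Ly6g detected in every male library. The 4 erythroid markers summed to 62.0 to 223.6 and 46.5 to 113.8 CPM. In the same groups the 8 microglia markers summed to 29140 to 33150 and 25660 to 30080 CPM, and the 5 astrocyte markers to 128.6 to 166 and 148.9 to 198.8 CPM. The part of these cells in the result was not tested.

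**Figure D2:**
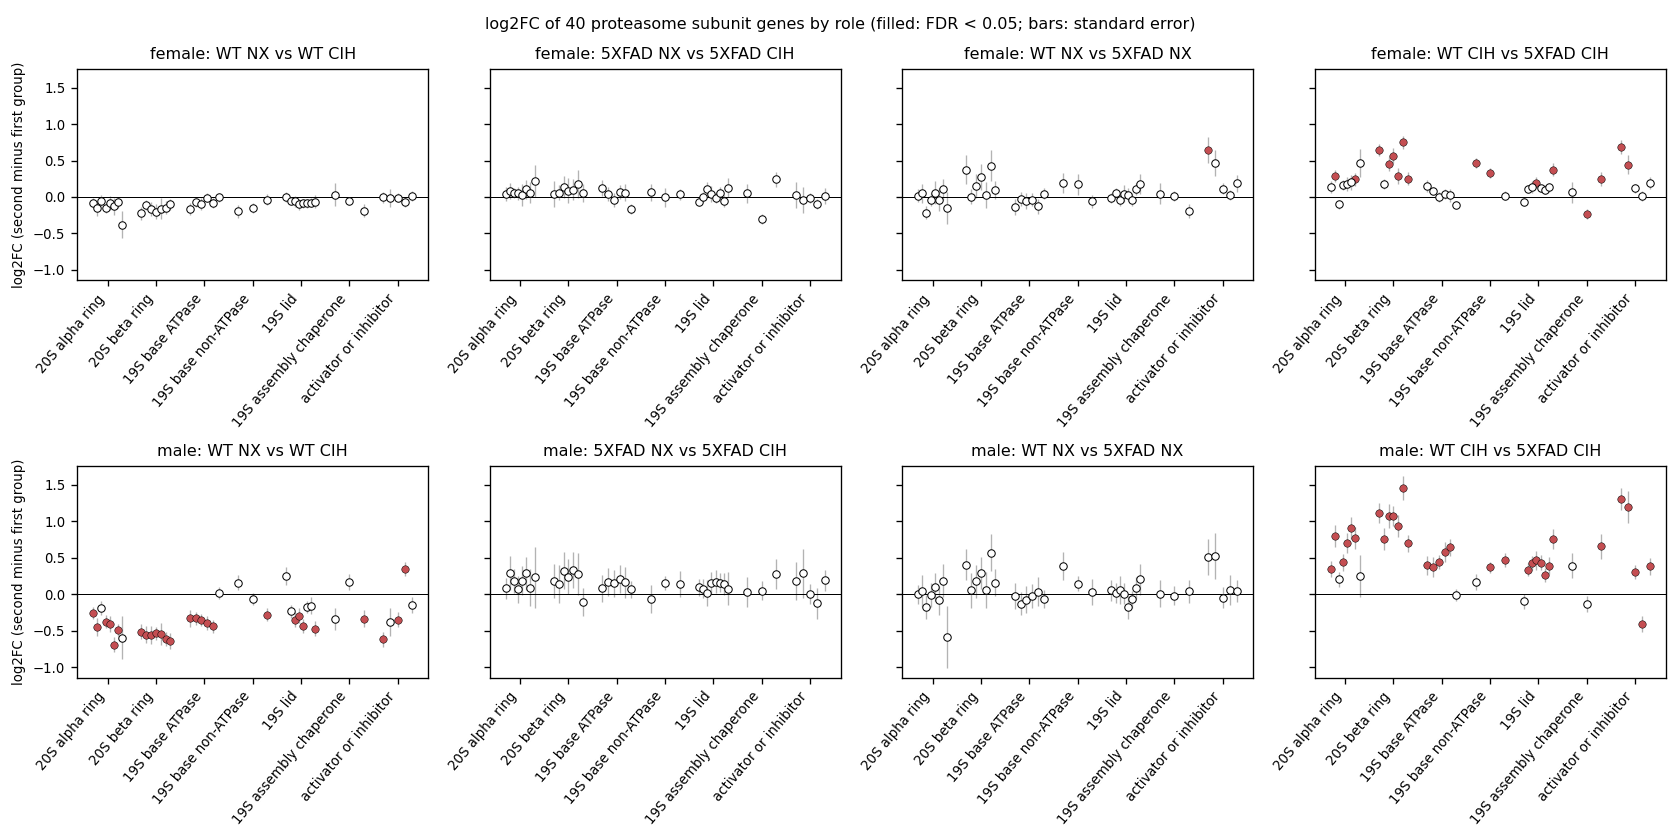
Point plot of the log2FC of the 40 members by role, with female comparisons in the upper and male comparisons in the lower row. Bars are standard errors and filled points passed an FDR of 0.05. In the male WT NX vs WT CIH panel all 7 beta ring points are filled and below 0, and in the male WT CIH vs 5XFAD CIH panel all 7 are filled and lie between 0.70 and 1.46.

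Between genotypes under CIH, male 5XFAD microglia had higher levels of most members than WT. Of 40 members 32 were higher and 1 lower in M 5XFAD CIH than in M WT CIH, 82.5% of the members against 49.0% of the 14793 genes tested (25.3% higher, 23.7% lower). The median log2FC was 0.44, and the groups did not overlap for 21 higher members and 1 lower member, which held for 19.4% and 16.6% of all genes. Both this comparison and the one between WT groups use the M WT CIH libraries, so they are not independent. A total of 6 members passed an absolute log2FC of 1, against 18.7% of all genes: Psmb6, Psme1, Psme2 and Psmb1, and Psmb3 and Psmb4, which are named here after their values were seen.

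Psmb6 had 118.3, 109.4, 141.1, 155.2 and 230.0 CPM in M 5XFAD CIH, all more than the highest M WT CIH library at 57.9 CPM. It was 2.76-fold higher (log2FC 1.46, SE 0.164, adjusted p = 5.59e-06). Psmb1, a structural subunit of the beta ring, had 64.6, 62.4, 70.6, 65.2 and 65.3 CPM in M WT CIH and 116.4, 109.7, 143.0, 138.1 and 196.7 CPM in M 5XFAD CIH (log2FC 1.11, SE 0.134, adjusted p = 1.1e-05). M 5XFAD CIH 5 was the highest library for both genes. All 7 beta ring members were higher, with a class median of 1.07, against 0.57 for the alpha ring, 0.42 for the base ATPases and 0.41 for the lid. Psmb5 and Psmb7 had a log2FC of 0.93 and 0.70.

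Psme1 had 199.8, 180.3, 227.2, 280.8 and 331.4 CPM in M 5XFAD CIH and was 2.47-fold higher without overlap (log2FC 1.31, SE 0.15, adjusted p = 6.99e-06). Psme2 had 39.8, 31.7, 40.1, 49.6 and 47.2 CPM in M WT CIH and 82.0, 49.5, 85.7, 111.7 and 147.2 CPM in M 5XFAD CIH (log2FC 1.199, SE 0.222, adjusted p = 0.00049). One M 5XFAD CIH library lay within the WT range. Psme3 and Psmf1 were also higher, with a log2FC of 0.30 and 0.38. Psme4 was again the exception, with 56.7, 60.0, 55.6, 59.5 and 46.1 CPM in M 5XFAD CIH, all below M WT CIH (log2FC −0.41, SE 0.105, adjusted p = 0.00522). Psmd4 and Psmd14 were higher with a log2FC of 0.47 and 0.46, and of the chaperones Psmd9 was higher (0.66) while Psmd5 (−0.13) and Psmd10 (0.39) were not called. Psmd10 was called in 3 of 10 fits with 1 library left out.

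The direction of the smaller differences depended on the scaling. With library size alone, 15 members were higher and 4 lower, against 60.8% of all genes, the median was 0.057 for members and −0.43 for all genes, and Psme3 turned to −0.076. The calls of Psmd4, Psmd9, Psmd14 and Psmf1 were lost under this scaling, with a log2FC between 0.0059 and 0.265, and Psmd5 was called lower (−0.51). The log2FC of Psme4 was −0.78 with library size alone and −0.23 with the length trend removed, lower in both. Relative to the median of all genes, the members lay 0.49 higher with library size alone and 0.50 higher with DESeq2. The 8 microglia markers summed to 25660 to 30080 CPM in M WT CIH and 21280 to 23080 CPM in M 5XFAD CIH, and the 5 astrocyte markers to 148.9 to 198.8 and 213.8 to 580.6 CPM, with Gfap at 0 in at least 1 male library. The 5 endothelial markers summed to 64.9 to 106.4 and 109.1 to 153.5 CPM and the 5 border macrophage markers to 124.7 to 283.9 and 77.8 to 163.8 CPM. The 5 oligodendrocyte markers summed to 123.4 to 198.8 and 172.4 to 352.0 CPM and the 5 T and B cell markers to 1.105 to 3.17 and 2.40 to 10.99 CPM. The part of these cells in the result was not tested.

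**Figure D3:**
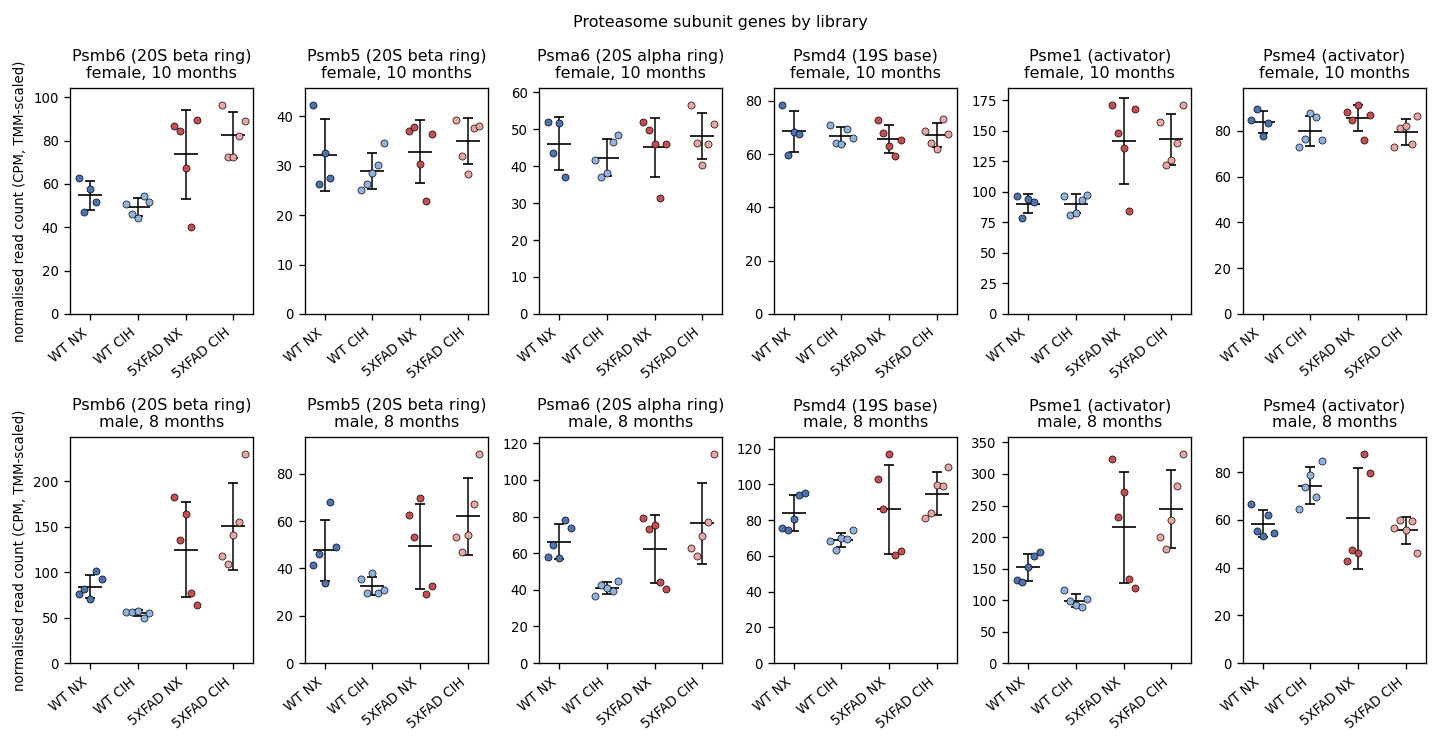
Dot plots of the normalised read count (CPM) of 6 members in every library, with females in the upper and males in the lower row. Lines and bars are the mean and SD of each group. In males Psmb6 and Psme1 are lowest in WT CIH and highest in 5XFAD CIH, Psme4 shows the opposite order of these groups, and the M 5XFAD NX libraries fall into 3 high and 2 low values for Psmb6.

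No member was called between genotypes under NX in males or between NX and CIH in male 5XFAD mice. For M WT NX vs 5XFAD NX, 0 of 40 members were called against 17.8% of all genes, 1 had an unadjusted p below 0.05 against 29.9% of all genes, and DESeq2 and the likelihood ratio test called 0. The median log2FC was 0.040, and it lay between −0.049 (without M 5XFAD NX replicate 1) and 0.125 (without M 5XFAD NX replicate 5) with 1 library left out. It was −0.18 with library size alone and −0.036 with the trend on gene length removed, so its sign changed with the libraries and with the processing. The libraries of M 5XFAD NX varied widely. Psmb6 had 182.7, 135.6 and 164.5 CPM in libraries 1 to 3 and 77.5 and 63.6 CPM in libraries 4 and 5, the first inside and the second below the M WT NX range of 70.1 to 100.9 CPM. Psme1 had 323.5, 231.2 and 271.4 CPM in libraries 1 to 3 and 132.9 and 118.7 CPM in libraries 4 and 5. Psme4 showed the reverse, with 42.7, 47.5 and 46.0 CPM in libraries 1 to 3 and 87.5 and 79.6 CPM in the other two. The log2FC was 0.57 for Psmb6 (SE 0.257, adjusted p = 0.159) and 0.50 for Psme1 (SE 0.247, adjusted p = 0.195). Without M 5XFAD NX replicate 5, 2 of 40 members, Psmb6 and Psme1, were called higher (log2FC 0.735 and 0.66), against 19% of all genes called in that fit. Without M 5XFAD NX replicate 1 neither was called, and their log2FC was 0.39 and 0.31. Without M 5XFAD NX replicate 4, 0 members were called, against 18.1% of all genes, and the median was 0.11.

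For M 5XFAD NX vs 5XFAD CIH, 0 of 40 members and 0.0% of all genes were called, 0 members and 3.3% of all genes had an unadjusted p below 0.05, and DESeq2 and the likelihood ratio test called 0 members. The median log2FC of members was 0.15, and Psmb6 had a log2FC of 0.27 (SE 0.286, adjusted p = 0.994). With 1 library left out 0 members were called, the median lay between 0.068 and 0.25, and the log2FC of Psmb6 between 0.097 and 0.46. The median was 0.086 without M 5XFAD NX replicate 4, 0.068 without replicate 5, 0.25 without replicate 1 and 0.090 without M 5XFAD CIH replicate 5, and 0.092 with library size alone. The test of the difference itself, the interaction of genotype and treatment, called 0 members and 0.0% of the 15813 genes at an FDR of 0.05. At an unadjusted p below 0.05 it gave 20 of 40 members, against 24.4% of all genes, with a median log2 difference of 0.50. DESeq2 called 4 of 40 members against 10.8% of the genes it gave an adjusted p, and the likelihood ratio test 1 against 1.57% of all genes, all with a positive difference. With no filter on low counts edgeR called 9 of 41 members against 4.57% of the 38365 genes. These genes include those with counts too low for the filter, which 40 of the 41 members passed. The 4.57% is therefore not a like background for the members. Without M 5XFAD NX replicate 1, edgeR called 4 members against 6.05% of all genes, and the median was 0.61. Without M 5XFAD NX replicate 4 or 5 it called 0 members and 0.0% of all genes, with a median of 0.41 and 0.39. Psma6 had the largest interaction of the members (log2 difference 0.98, SE 0.265, adjusted p = 0.117).

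No member was called between NX and CIH in females. Between F WT NX and F WT CIH 0 of 40 members and 0.0% of all genes were called, 3 members and 3.87% of all genes had an unadjusted p below 0.05, and DESeq2 and the likelihood ratio test called 0 members. Of the 40 members 2 had a log2FC above 0, against 48.3% of all genes, and the median was −0.082. Without F WT NX replicate 1, 11 members were above 0 and the median was −0.044. Without F WT NX replicate 4, 3 were above 0 and the median was −0.123. With library size alone, and with the length trend removed, 8 were above 0. Psmb6 had 62.6, 46.9, 57.7 and 51.6 CPM in F WT NX and 51.0, 46.2, 44.3, 54.4 and 51.7 CPM in F WT CIH, and the ranges overlapped (log2FC −0.15, SE 0.089, adjusted p = 0.96). Psme1 had a log2FC of −0.0054 and Psme4 of −0.071. With 1 library left out, Psme1 lay between −0.062 and 0.033, Psme4 between −0.112 and −0.034, and Psmb6 between −0.211 and −0.072. Between F 5XFAD NX and F 5XFAD CIH 0 of 40 members and 0.0% of all genes were called, 3 members and 3.22% of all genes had an unadjusted p below 0.05, and the same tools called 0 members. Psmd5 had 23.6, 26.5, 25.2, 26.8 and 25.2 CPM in F 5XFAD NX and 21.8, 18.4, 21.0, 20.6 and 20.4 CPM in F 5XFAD CIH. Its groups did not overlap, which held for 0.37% of all genes in this direction, but it did not pass the adjustment over all genes (log2FC −0.31, SE 0.0696, adjusted p = 0.998). The interaction called 0 members and 0.0% of all genes in females by edgeR, with 2 members and 3.78% of all genes at an unadjusted p below 0.05 and 0 members by DESeq2 and the likelihood ratio test. Without F 5XFAD NX replicate 4, 0 members were called in F 5XFAD NX vs 5XFAD CIH and in the interaction, and their medians were −0.020 and 0.064, against 0.049 and 0.12 with all libraries. Without F 5XFAD NX replicate 1 these medians were 0.102 and 0.182, and with the length trend removed they were −0.043 and 0.0145.

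Under CIH, female 5XFAD microglia also had higher levels of some members, 8 of them in the beta ring and PA28. Of 40 members 15 were higher and 1 lower in F 5XFAD CIH than in F WT CIH, where 51.9% of the 14911 genes tested were called (26.2% higher, 25.7% lower). The share of members called was below that of all genes, while the median log2FC was 0.17 against −0.018. With the length trend removed the median was 0.048, and 26 members in place of 36 were above 0. The largest log2FC of a member was 0.75. Of the 7 beta ring members tested 6 were called higher, of the 8 alpha ring members 2, of the 6 base ATPases 0, and of the 5 activator or inhibitor genes 2, namely both PA28 genes. The groups did not overlap for 8 higher members and 1 lower member, which held for 18.8% and 19.7% of all genes.

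Psmb6 again had the largest difference, with 51.0, 46.2, 44.3, 54.4 and 51.7 CPM in F WT CIH and 96.5, 72.6, 72.3, 82.3 and 89.3 CPM in F 5XFAD CIH (1.69-fold, log2FC 0.75, SE 0.0894, adjusted p = 1.31e-05). Psme1 had 96.2, 81.1, 82.7, 93.4 and 97.3 CPM in F WT CIH and 157.5, 121.6, 126.3, 139.7 and 171.0 CPM in F 5XFAD CIH (log2FC 0.68, SE 0.0962, adjusted p = 5.83e-05). Psmb1 followed (log2FC 0.64, SE 0.0822, adjusted p = 2.73e-05). None of these 3 genes overlapped between the groups. Psmb5 (0.29), Psmb7 (0.25), Psme2 (0.44), Psmd14 (0.20) and Psmd9 (0.24) were also called higher, and Psmd4 (0.020), Psme3 (0.12), Psme4 (0.0082), Psmd10 (0.066) and Psmf1 (0.19) were not called. With 1 library left out, the calls of Psmb7, Psmd9, Psmb5 and Psmd14 were lost in 4, 6, 7 and 8 of 10 fits, and Psmf1 was called in 1. Over these fits the log2FC of Psmd4 lay between −0.0145 and 0.052, of Psme4 between −0.025 and 0.045, and of Psmd10 between −0.032 and 0.169. Psmd5, an assembly chaperone of the base, was the single lower member, with 22.9 to 25.8 CPM in the F WT CIH libraries and 18.4 to 21.8 CPM in the F 5XFAD CIH libraries (log2FC −0.24, SE 0.0669, adjusted p = 0.00959). With library size alone the split was 6 higher and 8 lower, against 59.7% of all genes called. The median of all genes then lay at −0.21 and that of members at −0.023, and Psmd4 turned to −0.17 and Psme4 to −0.19. The calls of Psmb5, Psmb7, Psme2, Psmd9 and Psmd14 were lost both with library size alone and with the length trend removed. The 8 microglia markers summed to 27200 to 31150 CPM in F WT CIH and 21910 to 23770 CPM in F 5XFAD CIH. The 5 astrocyte markers summed to 157.4 to 188.0 CPM in F WT CIH and 221.7 to 614.4 CPM in F 5XFAD CIH, with Gfap above 0 in every female library. The 5 endothelial markers summed to 56.0 to 120.6 and 165.7 to 239.5 CPM and the 5 border macrophage markers to 127.3 to 271.4 and 59.8 to 115.4 CPM. The 5 oligodendrocyte markers summed to 88.2 to 249.5 and 157.9 to 372.5 CPM and the 5 neutrophil markers to 33.5 to 71.0 and 14.6 to 46.9 CPM, and the part of these cells in the result was not tested.

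Under NX, only Psme1 was called between the female genotypes, 1 of 40 members against 13.9% of all genes. It had 96.8, 78.8, 94.2 and 91.7 CPM in F WT NX and 171.1, 148.5, 136.0, 84.2 and 167.5 CPM in F 5XFAD NX, where library 4 lay within the WT range (log2FC 0.65, SE 0.18, adjusted p = 0.0458). Psmb6 in the same library had 40.01 CPM, below every F WT NX library, while the other 4 had 67.5 to 89.5 CPM. Without F 5XFAD NX replicate 4, 6 members were higher and 1 lower, 7 of 40 against 44.0% of all genes called in that fit. With any other library left out 0 members were called, against 0.301% to 6.52% of all genes. With library size alone 0 members were higher and 2 lower, against 10.2% of all genes, with a median of −0.17 for all genes. The 8 microglia markers summed to 27180 to 30450 CPM in F WT NX and 23270 to 25020 CPM in F 5XFAD NX, and the 5 border macrophage markers to 159.9 to 296.4 and 77.8 to 143.6 CPM. F 5XFAD NX 4 had 152.6 CPM of the 5 neutrophil markers, 63.2 CPM of the 5 endothelial and 133.2 CPM of the 5 astrocyte markers, where the other 4 libraries had 7.38 to 33.8, 139.7 to 296.1 and 239.7 to 340.8 CPM. In F WT NX these lists summed to 27.6 to 139.9, 68.1 to 127.7 and 156.4 to 208.8 CPM. The part of these cells in the result was not tested.

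The balance between the core and the 19S particle was measured within each library, as the share of the 20S genes in the summed FPKM of 20S and 19S genes, which does not depend on the scaling between libraries. The share was 51.6%, 51.2%, 50.1%, 52.7% and 53.0% in M WT NX and 48.6%, 47.6%, 48.9%, 47.2% and 47.8% in M WT CIH, without overlap. It was 52.5% to 59.4% in M 5XFAD CIH, with M 5XFAD CIH 5 highest, and 49.6% to 55.7% in M 5XFAD NX, where libraries 4 and 5 were lowest at 50.2% and 49.6%. In females the share was 51.8% to 54.7% in WT NX, 50.8% to 53.4% in WT CIH, 51.3% to 57.1% in 5XFAD NX and 54.9% to 57.8% in 5XFAD CIH. F 5XFAD NX 4 had the lowest share of its group, and the other 4 libraries had 54.4% or more. The share was not corrected for the trend on gene length given below. In the male table Psmd1, Psmd11 and Psmc2, all 19S genes, were longer than 5000 bases, and no 20S gene was. These shares are descriptions, and neither they nor the part of gene length in them was tested.

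**Figure D4:**
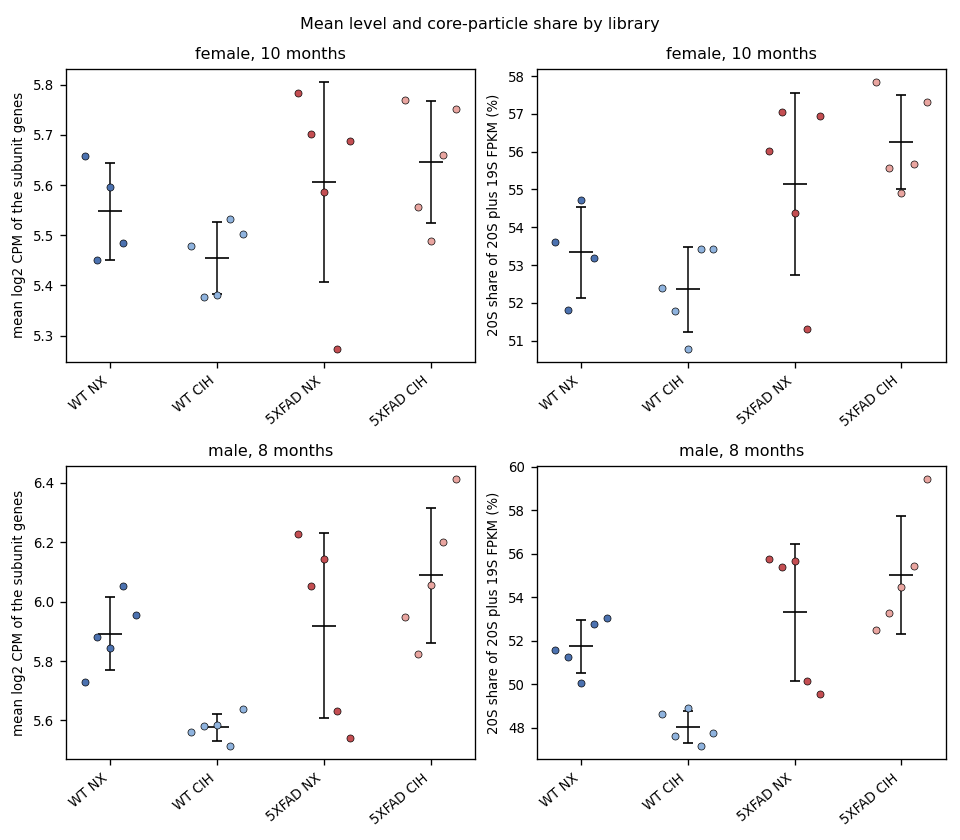
Dot plots of 2 summaries in every library, the mean log2 CPM over the members on the left and the 20S share of the 20S plus 19S FPKM on the right, with females above and males below. Lines and bars are the mean and SD of each group, and the vertical axes do not start at 0. All 5 M WT CIH libraries lie below all M WT NX libraries in both summaries (5.51 to 5.64 against 5.73 to 6.05 for the mean log2 CPM).

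The size of the differences also varied with gene length. Lengths are stated for the male data, and female lengths were derived from the deposited counts, library totals and FPKM. Across the 40 members, Spearman's rho between gene length and log2FC was 0.59 for M WT NX vs WT CIH, −0.50 for M WT CIH vs 5XFAD CIH and −0.46 for F WT CIH vs 5XFAD CIH. These are descriptions across genes that share their libraries. Of the members in the male table, 7 were longer than 5000 bases, among them Psme4, the longest at 8382 bases, Psmd5, Psmd9 and Psmf1. Their median log2FC between M WT NX and M WT CIH was 0.16, against −0.39 for the 33 shorter members. With the trend on gene length over all genes removed, 22 members were lower and 0 higher in M WT CIH, against 20.5% of all genes called, and Psme4 was among those not called. Between genotypes under CIH, 30 members were then higher and 1 lower in males, against 46.8% of all genes called. In females 7 were higher and 3 lower, 10 of 40 against 52.5% of all genes.

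**Figure D5:**
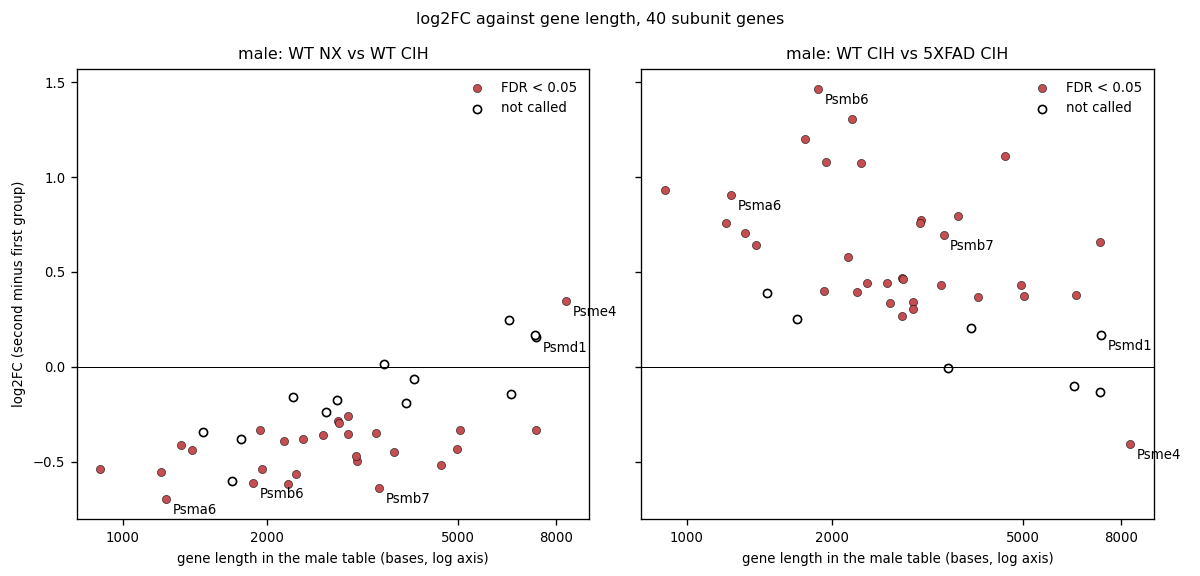
Scatter plot of the log2FC of the 40 members against gene length in the male table, on a log axis, for WT NX vs WT CIH on the left and WT CIH vs 5XFAD CIH on the right. Filled points passed an FDR of 0.05. Psme4, the longest member, lies at 0.35 on the left and at −0.41 on the right, opposite in sign to most shorter members.

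Other genes of the pathway were taken from lists and are given by counts, to be read against the shares of all genes called. These were 28.6% in M WT NX vs WT CIH, 49.0% in M WT CIH vs 5XFAD CIH, 51.9% in F WT CIH vs 5XFAD CIH, 17.8% in M WT NX vs 5XFAD NX and 13.9% in F WT NX vs 5XFAD NX. With 3 to 11 genes tested in a list, a count near these shares says nothing particular about the list. Of the proteasome partners and assembly factors, such as Pomp, the maturation factor of the core, 11 of 12 listed genes were tested. In M WT NX vs WT CIH 6 fell and 1 rose (median log2FC −0.48), whereas between the male genotypes under CIH 7 were higher in 5XFAD and 1 was lower (median 0.42). The split in F WT CIH vs 5XFAD CIH was 5 to 1 (median 0.091). The 3 immunoproteasome subunits, which replace the catalytic subunits after interferon, all fell in M WT NX vs WT CIH (median −0.54) and were all higher in M WT CIH vs 5XFAD CIH (median 0.81), and 2 of 3 were higher in F WT CIH vs 5XFAD CIH (median 0.34).

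The 6 genes that control proteasome transcription included Nfe2l1 and the protease gene Ddi2. In M WT NX vs WT CIH 1 rose, 1 fell and 4 were not called (median 0.077). Genes of this list were higher in 5XFAD in 3 of 6 cases under NX in males, 4 of 6 under CIH in males, 2 of 6 under NX in females and 5 of 6 under CIH in females. Of the 6 genes of ubiquitin and its activation 2 fell and 1 rose in M WT NX vs WT CIH (median −0.24), and 5 were higher under CIH in 5XFAD than in WT in each sex (medians 0.65 in males and 0.41 in females). Of the 8 shuttle factors and cofactors of the unfoldase p97, 1 fell in M WT NX vs WT CIH (median −0.0051). Under CIH, 2 were higher and 0 lower in 5XFAD males and 5 higher and 1 lower in 5XFAD females. No gene of these 5 lists was called between NX and CIH in females or in 5XFAD males, or in either interaction.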

How the data were processed

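Bulk RNA-seq of CD11b+ microglia was analysed as 39 libraries, 19 female and 20 male. The authors deposited whole-number counts per gene without normalization, and FPKM values. No gene lengths came with the female data, so they were derived from counts, library totals and deposited FPKM. With these lengths the FPKM divisor was 1 times the library total in every female library. Its level follows from the derivation, and only its constancy between libraries was a check. In males, with the stated lengths, the divisor was 0.794 to 1.2 times the total. Per the submitters' processing notes in the labels, reads were aligned to GRCm38 (mm10) with HISAT2, and the counting tool is not given in the sources used here. 

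edgeR 4.0.16 under R 4.3.3 was run on the counts (quasi-likelihood F test after TMM scaling) for each pair of groups within a sex over genes with CPM > 1 in at least 3 samples (at least 13 reads), with Benjamini-Hochberg adjustment over all genes tested. A gene was called at FDR < 0.05. The interaction was fitted over the 4 groups of a sex, and SE came from the test statistic. CPM values use TMM over the 4 groups of a sex, and ± is the SD between libraries. FPKM was used for levels between genes. The p-values measure the spread between libraries, which the study's methods call independent samples, and no pair of libraries within a group was a duplicate (lowest ratio of chi-square to degrees of freedom 4.865 over 76 pairs).

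Replicate numbers were not used to pair the samples. Deviations of same-numbered libraries correlated between −0.494 and 0.349, with 12 of 38 over 0.1. Differently numbered libraries were not correlated, so these values cannot decide whether the numbers pair samples.

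Members and gene lists were chosen with earlier results of these data known. Named with values were the catalytic subunits, Psmd4, Psmd14, activators, inhibitor, chaperones, members near 0, and per comparison up to 3 called members with the largest rise and 3 with the largest fall without overlap between groups. Alternatives were DESeq2 1.42.0, edgeR's likelihood ratio test, library size alone, no low-count filter, at least 10 counts in every sample, 4 groups in 1 fit, the replicate block, removal of the gene length trend, an FDR of 0.01, and each library left out. The test was tried on simulated data: in M WT NX vs WT CIH (14612 genes) it recovered 67 of 100 genes with an absolute log2FC of 1 and 33 of 100 with 0.5, with 2 false calls. In the male interaction (15406 genes) it recovered 23 of 100 and 1 of 100, with 1 false call.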

Additional observations from a re-analysis of the deposited data

Results flagged for a closer look

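The gap between the highest or lowest library and its nearest neighbour was compared with the range of the group, over 144 combinations of a group with the CPM of 16 members, the mean log2 CPM or the 20S share. In 6 the library stood apart by Dixon's limit, and chance flags about 1 in 20 groups. F 5XFAD NX 4 had a Psma6 level of 31.4 CPM, where the other 4 libraries had 46.0 to 51.9 CPM. The inhibitor Psmf1 had 22.9 CPM in F WT CIH 3 (others 26.3 to 27.6) and 28.5 CPM in F WT NX 4 (others 24.8 to 25.3). The chaperone Psmd5 had 33.3 CPM in M 5XFAD NX 3 (others 24.1 to 26.5) and 22.8 CPM in M WT NX 1 (others 27.5 to 29.3). The chaperone Psmd10 had 16.5 CPM in F 5XFAD CIH 5 (others 11.8 to 12.9).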

How the results depend on the processing

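The number of called members is given here with the share of all genes called in the same fit in brackets. It stayed within 1.5 times the main count in M WT NX vs WT CIH, except with the 4 groups in 1 fit (0, 0.0%) and an FDR of 0.01 (15, 15.3%), and in M WT CIH vs 5XFAD CIH, except with library size alone (19, 60.8%). In F WT CIH vs 5XFAD CIH library size alone gave 14 (6 higher, 8 lower, 59.7%), removal of the length trend 10 (52.5%), and an FDR of 0.01 gave 9 (39.2%). In F WT NX vs 5XFAD NX library size alone gave 2, both lower (10.2%), 4 groups in 1 fit 3 (32.0%), and an FDR of 0.01 gave 0 (0.0827%). In M WT NX vs 5XFAD NX library size alone gave 1 (21.9%). In the male interaction DESeq2 gave 4 (10.8%), the likelihood ratio test 1 (1.57%) and no filter 9 of 41 (4.57%). The last share includes genes with counts too low for the filter, so it is not like the other shares. With each library left out the counts were 0 to 7 in F WT NX vs 5XFAD NX (0.301% to 44.0%, with 7 and 44.0% without F 5XFAD NX replicate 4), 0 to 2 in M WT NX vs 5XFAD NX (14.1% to 19%), 0 to 4 in the male interaction (0.0% to 6.05%), 11 to 23 in F WT CIH vs 5XFAD CIH (47.0% to 51.7%), 21 to 27 in M WT NX vs WT CIH (22.0% to 31.9%) and 30 to 34 in M WT CIH vs 5XFAD CIH (44.3% to 52.1%). The remaining 3 comparisons and the female interaction had 0 called members under every alternative.

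The replicate block, for numbers not known to pair samples, gave 0 members in F WT NX vs 5XFAD NX (0.0482%) and 20 in F WT CIH vs 5XFAD CIH (52.3%). It gave 31 in M WT CIH vs 5XFAD CIH (48.1%) and 25 in M WT NX vs WT CIH (25.7%). In M WT NX vs WT CIH, Psmd9 and Psmd14 lost their calls under the block and Psme2 gained a call.

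With library size alone, values in F WT CIH vs 5XFAD CIH turned to a median of −0.023, Psmd4 −0.17 and Psme4 −0.19, and Psme3 in M WT CIH vs 5XFAD CIH turned to −0.076. With the length trend removed, Psmb7 in F WT CIH vs 5XFAD CIH turned to −0.00598. The cause was not tested. A CPM of 1 rested on 13 reads in the smallest library, so depth limited mainly Psma8 and Psmb11.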
